A study of Rattus norvegicus with 24 samples.

Results

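Chaperone mRNA was followed across 4 groups of rat hearts through 5 genes chosen by Ensembl ID: Hspa5 of the endoplasmic reticulum, Hspa8, Hsp90aa1 and Hspb1 of the cytosol, and Hspd1 of the mitochondrion. The ID of Hspa5, Hspa8, Hspb1 and Hspd1 was found on its expected chromosome, which gave 4 genes of the 30562 in the deposited count table, and Hsp90aa1 was not analysed here. All 4 passed the filter on low counts that kept 17347 genes for testing. The rule for membership rests on gene identity and uses no measured level, though the genes were chosen with earlier results of these data known.

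The rats were Sprague-Dawley, and RNA came from the heart septum at day 28, after cardiac ischemia-reperfusion injury and 28 days of infusion into the cerebral ventricles. The first group had sympathetically denervated brown adipose tissue (BAT) and received leptin, the second had ablated BAT and received leptin, the third had intact BAT and received leptin, and the fourth had intact BAT and received vehicle. Each group held 6 rats. They are called denervation, ablation, leptin and vehicle rats from here on. Every rat in these groups had the cardiac injury, so no uninjured heart enters any comparison, and no operated rat received vehicle, so surgery without leptin was not measured. The labels used here give no age and no sex. The design asks whether brain leptin changes the injured heart and whether it needs BAT and its sympathetic nerves to do so.

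Chaperones bind unfolded or newly made proteins and help them reach or keep their folded form, and each compartment of the cell has its own set. When unfolded protein builds up in the endoplasmic reticulum, the unfolded protein response raises transcription of its chaperones through the ER stress response element. In the cytosol and nucleus, heat shock factor 1 does the corresponding work through the heat shock element, made of repeated nGAAn units in alternating direction. Mitochondria have a response of their own that acts on nuclear genes for mitochondrial chaperones. In heart muscle, ischemia and reperfusion are known to engage these systems.

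The promoters are shown because they hold the elements named above, some of which the genes share. The windows run from 250 bases before to 50 bases after the RefSeq start on assembly GRCr8, all 4 genes were matched by symbol, and capitals mark matches to the motifs searched. The ER stress response element was searched as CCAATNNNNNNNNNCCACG on both strands. The heat shock element was searched on both strands as the 3-unit GAANNTTCNNGAA, and as the 2-unit GAANNTTC and TTCNNGAA, which are contained in the 3-unit form.
Hspa5, chr3:38452766-38453065, plus strand: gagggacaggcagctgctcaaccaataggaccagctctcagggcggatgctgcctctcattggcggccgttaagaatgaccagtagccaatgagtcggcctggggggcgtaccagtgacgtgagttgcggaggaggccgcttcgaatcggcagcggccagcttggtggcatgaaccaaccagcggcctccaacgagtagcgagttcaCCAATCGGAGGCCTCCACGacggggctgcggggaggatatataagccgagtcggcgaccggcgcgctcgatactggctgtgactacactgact
Hspa8, chr8:50080264-50080563, plus strand: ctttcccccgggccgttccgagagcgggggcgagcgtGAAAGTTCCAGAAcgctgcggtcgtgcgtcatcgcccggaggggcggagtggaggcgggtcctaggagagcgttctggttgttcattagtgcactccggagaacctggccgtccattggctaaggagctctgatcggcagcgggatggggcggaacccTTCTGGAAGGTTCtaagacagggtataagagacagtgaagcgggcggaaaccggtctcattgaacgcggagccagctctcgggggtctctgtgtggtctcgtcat
Hspb1, chr12:26432252-26432551, minus strand: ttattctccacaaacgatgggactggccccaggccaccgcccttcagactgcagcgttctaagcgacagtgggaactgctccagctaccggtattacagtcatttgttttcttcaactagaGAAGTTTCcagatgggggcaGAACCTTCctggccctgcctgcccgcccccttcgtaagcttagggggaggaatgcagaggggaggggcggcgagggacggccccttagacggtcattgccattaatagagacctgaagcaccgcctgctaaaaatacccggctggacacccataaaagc
Hspd1, chr9:64083988-64084287, minus strand: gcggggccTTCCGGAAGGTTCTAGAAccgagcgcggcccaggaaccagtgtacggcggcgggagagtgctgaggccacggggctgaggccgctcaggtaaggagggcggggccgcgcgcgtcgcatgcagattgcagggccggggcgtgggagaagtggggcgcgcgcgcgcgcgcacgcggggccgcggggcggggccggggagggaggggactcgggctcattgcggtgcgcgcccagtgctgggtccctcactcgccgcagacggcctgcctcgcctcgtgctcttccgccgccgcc
The window of Hspa5 held the ER stress response element at positions -43 to -25 from the start, a motif found in 22 of 33469 RefSeq windows (0.0657%). The window of Hspa8 held the 3-unit heat shock element at -213 to -201 and, on the other strand, at -55 to -43. That of Hspd1 held overlapping 3-unit matches at -242 to -230 and -237 to -225. The 3-unit form occurred in 267 windows (0.798%). Hspb1 held only the 2-unit GAANNTTC, which is also part of the matches in Hspa8 and Hspd1, at -129 to -122 and -109 to -102, a form present in 2875 windows (8.59%), and TTCNNGAA occurred in 2935 (8.77%). A match describes the letters and not a bound factor, and binding was not measured.

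Library totals were 71587993 to 122910706 reads, and each of the 4 genes had at least 5587 reads in every library, so counting error was small beside the differences between rats. Levels are CPM, reads of a gene scaled to a common library total after TMM scaling. The libraries fell into sets that the labels do not name as a batch: the first principal component of log2 CPM, with 45.9% of the variance, separated the 7 rats with the highest rat numbers in the labels from the other 17. The 7 comprised 2 denervation, 1 ablation, 1 leptin and 3 vehicle rats. Their TMM factors were 0.699 to 0.903, against 0.935 to 1.27 in the 17. What the number records is not stated. Each comparison was therefore run as designed and once more with the set (high-numbered or low-numbered) as a term of the model. The deposited table pairs no ID with a symbol, so markers of heart cell types, and other chaperone genes, were not measured by name. In whole tissue, fewer cells of a type and less RNA per cell cannot be told apart.

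Compared per kilobase of exon, all 4 genes were abundant. Hspa8, the constitutive cytosolic Hsp70 that folds new proteins and strips clathrin coats, was highest, with a mean level of 267 CPM per kilobase over the 24 libraries (rank 161 of 17347 tested genes). Hspb1, the small heat shock protein Hsp27 that holds unfolding proteins and interacts with actin, had a mean level of 168.4 CPM per kilobase (rank 241). Hspa5, the ER Hsp70 also called BiP or GRP78, had 123 CPM per kilobase (rank 320). Hspd1, the mitochondrial chaperonin Hsp60, had 74.9 CPM per kilobase (rank 533).

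**Figure D1:**
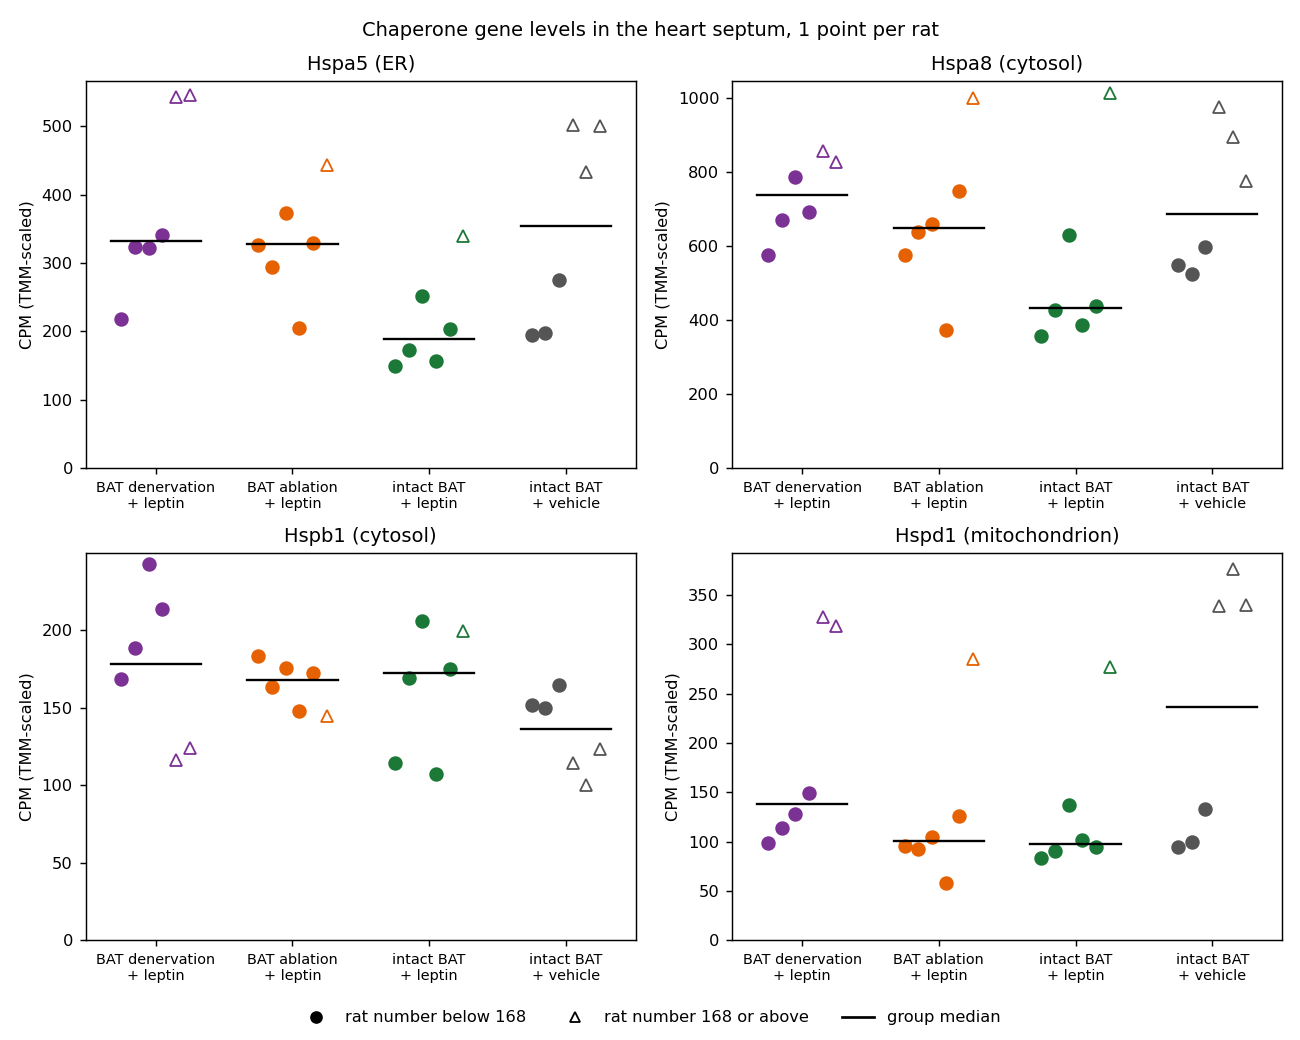
Level of each chaperone gene in CPM, by group, with 1 point per rat (n = 6 a group), open triangles for high-numbered rats and filled circles for the others, and a line at the group median. Leptin rats have the lowest median of Hspa5, 188 CPM, while the groups overlap for every gene.

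As designed, none of the 4 genes passed the threshold (edgeR quasi-likelihood test, adjusted p under 0.05 over all 17347 genes) in the test of any difference among the 4 groups or in any of the 6 pairwise comparisons. Of all genes tested, 0.0692% passed the test of any difference, 0.674% the test between leptin and vehicle, 3.03% that between ablation and leptin, and 0% each of the other 4, so 0 of 4 chaperone genes is close to what these shares give. At an unadjusted p under 0.05, Hspa5 alone passed between denervation and leptin (16.3% of all genes did), between ablation and leptin (18%), between leptin and vehicle (23.4%) and in the test of any difference (17.9%). None of the 4 did between ablation and vehicle (10.9%), denervation and vehicle (2.01%) or ablation and denervation (4.48%).

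At the adjusted threshold, DESeq2 gave the same counts as edgeR, and limma-voom gave mostly higher ones. DESeq2 called none of the 4 genes in any comparison, while calling 10.1% of its genes between leptin and vehicle, 7.66% between ablation and leptin, 2.7% between denervation and leptin, 0.114% between ablation and vehicle, 0% in the other 2 pairs and 7.27% for any difference. limma-voom with sample weights called 4 of the 4 between leptin and vehicle (60.7% of all genes), 1 between ablation and leptin (17.4%), 2 between denervation and leptin (22.8%), 3 between ablation and vehicle (55.7%), 2 between denervation and vehicle (46.4%), 0 between ablation and denervation (0.311%) and 4 for any difference (69.5%). No chaperone gene's levels separated a pair of groups without overlap. Over all genes that held for 1.46% between leptin and vehicle, 0.911% between ablation and leptin, 0.951% between denervation and leptin, 0.242% between ablation and vehicle, 0.306% between denervation and vehicle and 0.19% between ablation and denervation.

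In the endoplasmic reticulum, Hspa5 was lowest in rats with intact BAT that received leptin. BiP, its product, binds nascent chains that enter the organelle and holds the stress sensors inactive until unfolded protein draws it away. The lowest, median and highest levels were 218, 332 and 546 CPM in denervation rats, 204, 327 and 444 CPM in ablation rats, 149, 188 and 340 CPM in leptin rats, and 194, 354 and 502 CPM in vehicle rats. The means were 382 ± 133 CPM in denervation rats, 328 ± 79.8 CPM in ablation rats, 212 ± 72.8 CPM in leptin rats and 351 ± 145 CPM in vehicle rats (SD, n = 6 each). Only 1 leptin rat, the one in the high-numbered set, exceeded 252 CPM. The order of means was denervation, vehicle, ablation and leptin, and the first 3 differed from each other by less than their SD.

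Against leptin rats, Hspa5 differed by 0.85 ± 0.29 on the log2 scale in denervation rats (SE, 95% interval 0.25 to 1.45, adjusted p = 0.176). The difference in ablation rats was 0.63 ± 0.29 (0.03 to 1.23, adjusted p = 0.246). Leptin rats differed from vehicle rats by -0.72 ± 0.29 (-1.32 to -0.12, adjusted p = 0.143). With edgeR's Benjamini-Hochberg adjustment over all genes, none of these passed the threshold. Without leptin replicate 6, the high-numbered leptin rat, the first was 1.04 (adjusted p = 0.0498) and the last was -0.91 (adjusted p = 0.0308), both past the threshold. These values compare only low-numbered leptin rats with groups that hold 2 (denervation) and 3 (vehicle) high-numbered rats. The share of all genes called there is not given. With the set as a term, leptin against vehicle was called in 0 of 12 fits that leave out 1 rat (edgeR adjusted p 0.0695 to 0.384). Denervation against leptin was called in 6 of 12. In low-numbered rats alone, leptin against vehicle was -0.25 and did not pass.

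When the rat-number term was fitted, Hspa5 passed the threshold as higher in denervation rats than in leptin rats, by 0.68 ± 0.16 on the log2 scale (fold 1.61, adjusted p = 0.0245). It also passed as higher in ablation rats than in leptin rats, by 0.66 ± 0.16 (fold 1.58, adjusted p = 0.00795). It was the only 1 of the 4 genes called. In this model 6.65% of all tested genes were called between denervation and leptin rats (2.43% as higher in denervation) and 18.6% between ablation and leptin rats (9.64% as higher in ablation). The test of any difference among the 4 groups was passed by Hspa5 (adjusted p = 0.0221) and by 10.3% of all genes. Leptin and vehicle rats differed by -0.37 ± 0.17 (adjusted p = 0.166), which did not pass, as 6.13% of all genes did. None of the 4 genes, and 0% of all genes, passed in the other 3 pairs. These comparisons share the leptin rats. The boundary of the sets was read from these same libraries, so the term was not fixed in advance.

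The Hspa5 calls under the term depended on which rats and which covariate entered. Leaving out 1 rat at a time kept the ablation call in 12 of 12 fits (adjusted p 0.00262 to 0.0285). The denervation call was kept in 6 of 12, with losses on omitting leptin replicates 1, 2 and 4 and denervation replicates 2, 3 and 4 in turn, and with adjusted p from 0.0135 to 0.0757 over the fits. Within the 17 low-numbered rats the number still differed between groups, since 4 of the 5 leptin rats were numbered 56 to 62 and the 5 ablation rats 95 or above. A length gradient, the typical level of the longest genes relative to the shortest in a library, also moved with the sets, at 0.171 to 0.517 in high-numbered and -0.425 to 0.177 in low-numbered rats on the log2 scale. With this gradient beside the term, the ablation difference was 0.49 ± 0.15 (adjusted p = 0.0452) and the denervation difference 0.57 ± 0.15 (adjusted p = 0.0742), which no longer passed. When a linear rat number was added to the term, a fit chosen after the data were seen, the ablation difference was 0.44 ± 0.18 (adjusted p = 0.146) and the denervation difference 0.63 ± 0.15 (adjusted p = 0.0294). With the 4 leptin rats numbered 56 to 62 left out, also chosen after the data were seen, the differences were 0.60 ± 0.23 for ablation (adjusted p = 0.275) and 0.63 ± 0.23 for denervation (adjusted p = 0.465), and neither passed with 2 leptin rats left.

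The Hspa5 call for any difference among the 4 groups was also unstable. It was lost on omitting leptin replicate 1, 2 or 4 (edgeR adjusted p 0.00839 to 0.0696 over the 24 fits that leave out 1 rat, with 21 calls). It was likewise lost with the length gradient (adjusted p = 0.0847), with a linear rat number (0.0529), in low-numbered rats alone (0.0995) and without the 4 leptin rats numbered 56 to 62 (0.429).

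Set by set, the Hspa5 levels showed the same order of leptin against the operated rats. Among low-numbered rats the mean was 301 ± 55.97 CPM in denervation (SD, n = 4), 305 ± 63.1 CPM in ablation (n = 5), 187 ± 42.0 CPM in leptin (n = 5) and 222 ± 45.5 CPM in vehicle rats (n = 3). A fit to these 17 rats alone called the ablation difference from leptin, 0.71 ± 0.20 (edgeR adjusted p = 0.0326), and not the denervation difference, 0.69 ± 0.21 (adjusted p = 0.0974). Among the high-numbered rats, levels were 543 and 546 CPM in denervation, 444 CPM in ablation, 340 CPM in leptin, and 433, 501 and 502 CPM in vehicle rats. Leptin thus had the lowest level in both sets, on 1 rat in the high-numbered one.

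**Figure D2:**
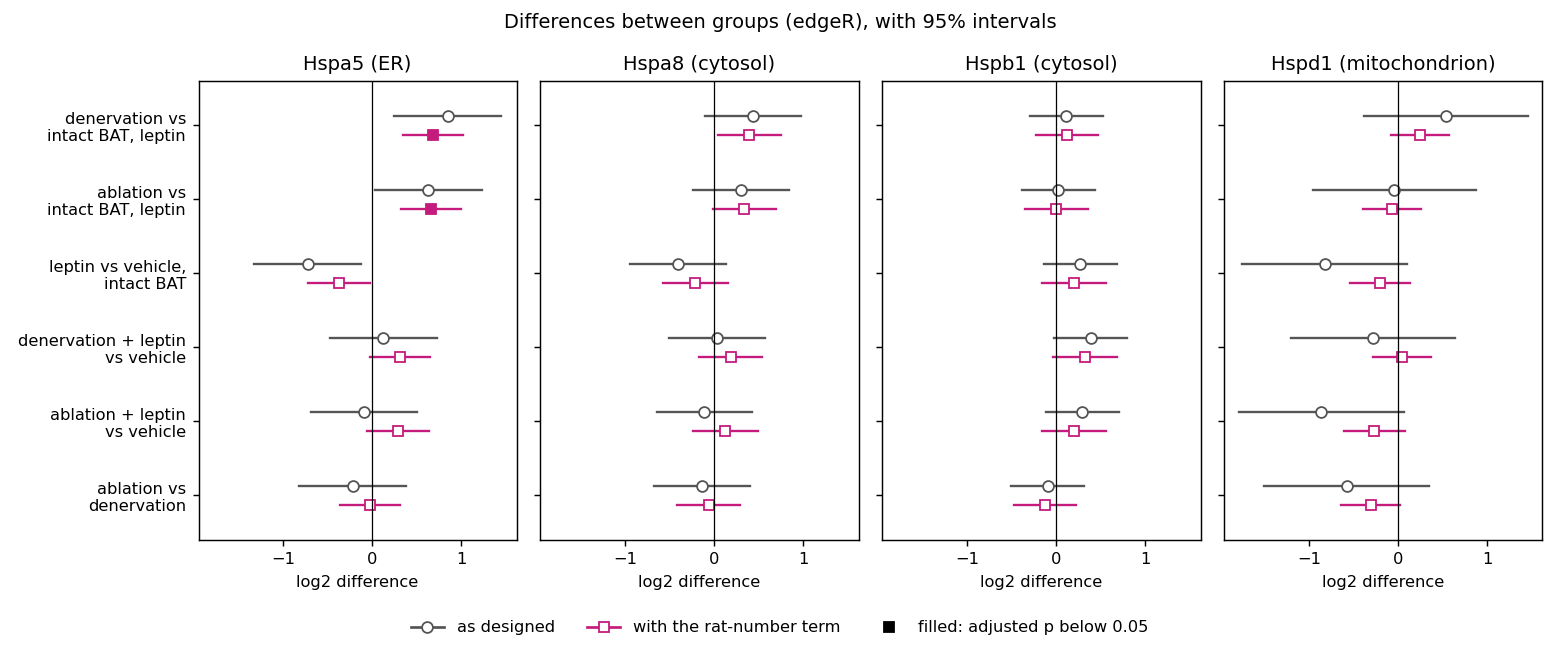
Log2 difference of each chaperone gene for each pair of groups, as designed (circles) and with the rat-number term (squares, filled where the adjusted p is below 0.05), with 95% intervals from the edgeR fit over 24 libraries. The intervals of Hspa5 for denervation and ablation against leptin lie above 0 under both models, and the term narrows them. That of Hspa5 for leptin against vehicle lies below 0 under both models. With the term, that of Hspa8 for denervation against leptin lies above 0. Neither of these passed the adjusted threshold under either model.

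In the cytosol, the constitutive Hsp70 Hspa8 showed differences of the same sign as Hspa5 against leptin rats, and smaller ones. Its lowest, median and highest levels were 577, 739 and 856 CPM in denervation rats, 374, 650 and 1001 CPM in ablation rats, 357, 433 and 1013 CPM in leptin rats, and 524, 687 and 975 CPM in vehicle rats. The mean was 735 ± 106 CPM in denervation rats, 667 ± 207 CPM in ablation rats, 542 ± 250 CPM in leptin rats and 720 ± 190 CPM in vehicle rats (SD, n = 6 each). Neighbours in that order differed by less than the SD of either group. The leptin rat at 1013 CPM was the high-numbered one, and the other 5 lay at 357 to 630 CPM.

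Hspa8 differed from leptin rats by 0.44 ± 0.26 on the log2 scale in denervation rats (SE, 95% interval -0.10 to 0.98, adjusted p = 0.400). In ablation rats the difference was 0.30 (-0.24 to 0.84, adjusted p = 0.596), and leptin differed from vehicle rats by -0.41 ± 0.26 (-0.95 to 0.13, adjusted p = 0.325). With the rat-number term these were 0.39 ± 0.17, 0.34 ± 0.17 and -0.21, with adjusted p of 0.139, 0.165 and 0.470 in edgeR. Without leptin replicate 6, the difference of leptin from vehicle rats as designed was -0.69 (adjusted p = 0.0367), and under the term that of denervation from leptin rats was 0.53 (adjusted p = 0.0495). The first of these compares only low-numbered leptin rats with a vehicle group that holds 3 high-numbered rats. With the term, leptin against vehicle was called in 0 of 12 fits that leave out 1 rat (edgeR adjusted p 0.187 to 0.680). Under the term without ablation replicate 4, the ablation difference was 0.44 (adjusted p = 0.0412). In the annotation the spans of 2 other genes overlap that of Hspa8, and reads from any exonic bases they share cannot be told apart. Whether they share such bases was not examined.

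Hspb1, the small heat shock protein, varied least of the 4 genes. Its SD within groups was 0.33 on the log2 scale, against a median of 0.50 over the 1268 tested genes with a mean of at least 100 CPM. Its lowest, median and highest levels were 116, 178 and 243 CPM in denervation rats, 144, 167.8 and 183 CPM in ablation rats, 107, 172 and 206 CPM in leptin rats, and 99.8, 137 and 165 CPM in vehicle rats. The means were 175.5 ± 49.6, 164.5 ± 15.5 and 162 ± 42.0 CPM in denervation, ablation and leptin rats, against 134 ± 25.2 CPM in vehicle rats (SD, n = 6 each).

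Vehicle rats had the lowest mean of Hspb1, while for Hspa5 and Hspa8 leptin rats did. The difference from vehicle rats was 0.39 ± 0.20 in denervation rats (SE, log2 scale, 95% interval -0.02 to 0.80), 0.30 in ablation rats (-0.11 to 0.71) and 0.27 ± 0.20 in leptin rats (-0.14 to 0.68). None passed the threshold as designed (edgeR). Among the low-numbered rats the Hspb1 means were 203 CPM in denervation, 168.5 CPM in ablation, 154 CPM in leptin and 155 CPM in vehicle rats, so there the leptin and vehicle means were nearly equal. Among the 7 high-numbered rats the levels were 116 and 124 CPM in denervation, 144 CPM in ablation and 199 CPM in leptin rats, against 99.8 to 124 CPM in the 3 vehicle rats, so the denervation rats lay within or beside the vehicle range.

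In the mitochondrion, Hspd1 was the most variable of the 4 genes, and its level split by rat-number set. Hsp60, its product, forms the barrel in which proteins imported into the mitochondrial matrix fold, with Hspe1, the neighbouring gene in RefSeq, encoding the lid. Its lowest, median and highest levels were 99.0, 138 and 328 CPM in denervation rats, 58.1, 100.1 and 285 CPM in ablation rats, 83.1, 97.7 and 277 CPM in leptin rats, and 94.7, 236 and 377 CPM in vehicle rats. The sets were read from these same libraries, and how many other genes separate them without overlap was not counted. All 7 high-numbered rats lay at 277 to 377 CPM and all 17 low-numbered rats at 58.1 to 149 CPM. The group means of 189 ± 105, 127 ± 80.6, 131 ± 74.4 and 231 ± 134 CPM in denervation, ablation, leptin and vehicle rats (SD, n = 6 each) therefore follow how many high-numbered rats each group holds.

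As designed, Hspd1 differed by -0.82 ± 0.44 in leptin against vehicle rats (SE, log2 scale, 95% interval -1.75 to 0.11, adjusted p = 0.256) and by -0.86 ± 0.44 in ablation against vehicle rats (-1.79 to 0.07, adjusted p = 0.469). With the rat-number term the values were -0.20 ± 0.16 (adjusted p = 0.464) and -0.27 in edgeR. Denervation differed from leptin rats by 0.54 ± 0.44 as designed and by 0.24 with the term, and ablation from denervation rats by -0.58 ± 0.44 as designed and by -0.31 ± 0.16 with the term. None of these passed the threshold. Within the low-numbered rats the means were 122 CPM in denervation, 95.3 CPM in ablation, 101.2 CPM in leptin and 109 CPM in vehicle rats. The share of reads from genes of the mitochondrial genome was 26.7 ± 1.97% in denervation, 34.7 ± 8.24% in ablation, 33.5 ± 5.35% in leptin and 35.2 ± 1.17% in vehicle rats (SD, n = 6 each), and its part in the Hspd1 levels was not tested.

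**Figure D3:**
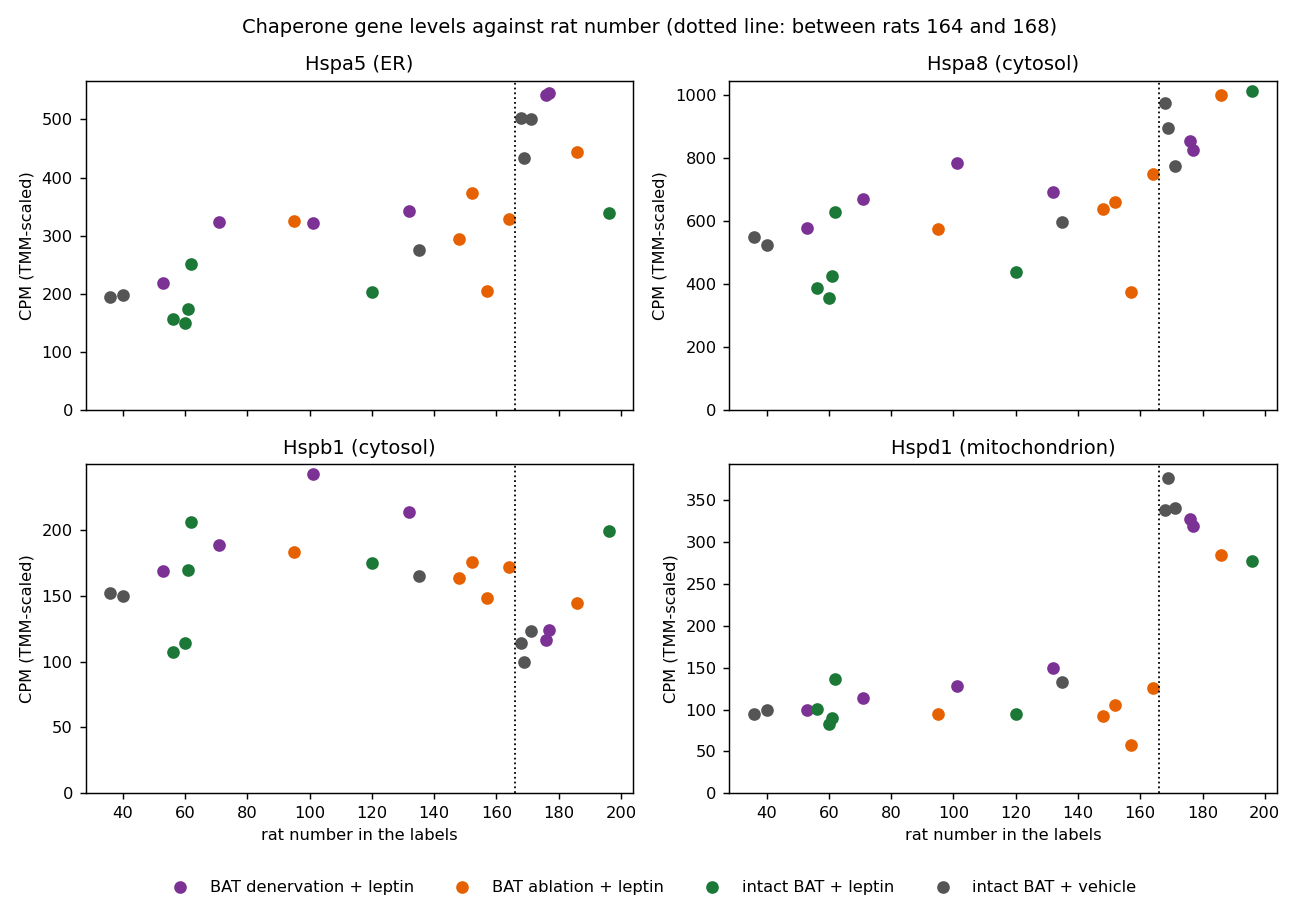
Level of each chaperone gene in CPM against the rat number, with 1 point per rat coloured by group and a dotted line between the low-numbered and high-numbered sets. Hspd1 lies at 277 to 377 CPM in the 7 high-numbered rats and at 58.1 to 149 CPM in the other 17. The sets were read from these same libraries, and how many other genes separate them was not counted.

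Across the rat-number sets the 4 genes did not move together. High-numbered rats had a higher level of Hspd1 by 1.54 ± 0.12 on the log2 scale (SE), of Hspa5 by 0.89 ± 0.13 and of Hspa8 by 0.68 ± 0.13, and a lower level of Hspb1, by -0.32 ± 0.14. In CPM the means were 324 in the high-numbered set and 106 in the low-numbered set for Hspd1, 473 and 255 for Hspa5, 906 and 567 for Hspa8, and 131.6 and 170 for Hspb1. The median size of this difference over all tested genes was 0.71, and it was larger than that of Hspd1 in 15.6% of genes, of Hspa5 in 40.1%, of Hspa8 in 52.0% and of Hspb1 in 75.7%. Since the boundary was read from these libraries, the values are a description. Ratios of levels per kilobase within a library, which no scaling of library size can change, separated the sets for 2 of the 3 ratios to Hspa8. Hspd1 over Hspa8 was 0.302 to 0.484 in high-numbered and 0.160 to 0.288 in low-numbered rats, and Hspb1 over Hspa8 was 0.295 to 0.520 in high-numbered and 0.607 to 1.05 in low-numbered rats. Hspa5 over Hspa8 did not separate them, at 0.323 to 0.638 in high-numbered and 0.340 to 0.545 in low-numbered rats. How many ratios of other genes separate the sets was not counted.

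Over the 24 libraries, the log2 levels of Hspa5 and Hspa8 correlated at a Pearson r of 0.89 (Spearman's rho 0.88), those of Hspa8 and Hspd1 at 0.84 and those of Hspa5 and Hspd1 at 0.83. Hspb1 correlated with Hspa5 at -0.13, with Hspa8 at 0.03 and with Hspd1 at -0.39. These values mix the sets. After each set's mean was subtracted, r was 0.75 for Hspa5 and Hspa8, 0.69 for Hspa8 and Hspb1, 0.65 for Hspa8 and Hspd1, 0.54 for Hspa5 and Hspd1, 0.46 for Hspa5 and Hspb1 and 0.30 for Hspb1 and Hspd1. The points share library, scaling and group, so the correlations are descriptions.

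**Figure D4:**
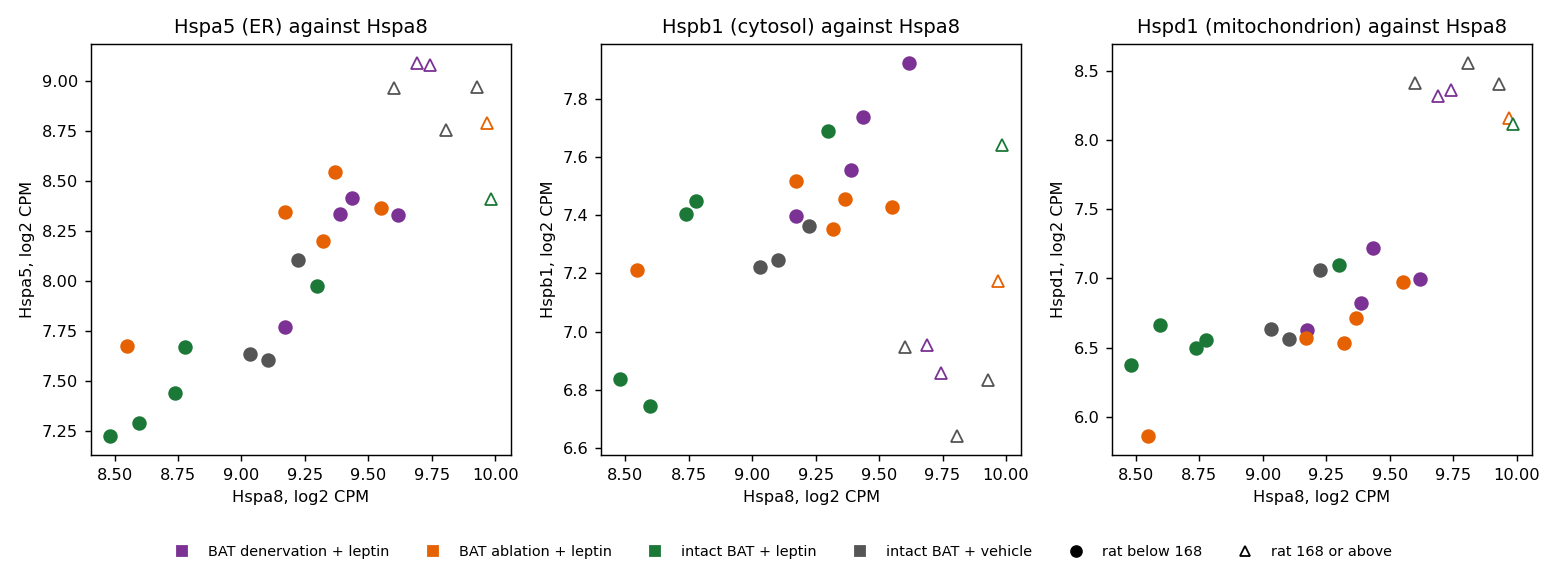
Level of Hspa5, Hspb1 and Hspd1 against that of Hspa8 in the same library, both in log2 CPM, with 1 point per rat coloured by group and open triangles for high-numbered rats. Hspa5 and Hspa8 rise together over the 24 libraries (r 0.89), while Hspb1 and Hspa8 do so only within the sets (r 0.03 over all, 0.69 after centring).

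Among 8711 tested genes with a mean of at least 10 CPM, the gene whose set-centred log2 level was most like that of Hspa5 over the 24 libraries was ENSRNOG00000006961 (chr3:117370100-117379339, minus strand, mRatBN7.2), with r 0.91. Its mean level was 65.8 CPM in denervation, 60.2 CPM in ablation, 43.6 CPM in leptin and 62.2 CPM in vehicle rats. For Hspa8 it was ENSRNOG00000063489 (chr3:7779143-7782818, minus strand), with r 0.91 and means of 32.6 CPM in denervation, 27.2 CPM in ablation, 24.3 CPM in leptin and 31.4 CPM in vehicle rats. Both were picked by correlation over the same libraries without centring by group, so a like order of groups is built into that choice. Correlations over 0.5 were common: 24.2% of the genes searched reached that with Hspa5 and 21.0% with Hspa8. In the count table's mRatBN7.2 annotation, Hspa5 (ENSRNOG00000018294) lies at chr3:18055405-18059891 on the plus strand, Hspa8 (ENSRNOG00000034066) at chr8:41183264-41187259 on the plus strand, Hspb1 (ENSRNOG00000023546) at chr12:20794028-20795743 on the minus strand and Hspd1 (ENSRNOG00000014525) at chr9:56579201-56589662 on the minus strand.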

How the data were processed

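Septum RNA, extracted with a spin-column kit per the labels, was sequenced as paired reads from 24 rats. The authors deposited whole-number read counts per gene, made with featureCounts 2.0.6 on Ensembl 113 of mRatBN7.2 per the file headers, paired-end, with no option for strand, multimapping or counting pairs once. The submitters' processing notes name STAR 2.7.10a, featureCounts 2.0.2, DESeq2 and R 4.4.1. Both mates of a pair may have been counted, as the table holds 19013 cells with a 2 and 5161 with a 1. Another 5 count columns match no listed sample and were not used. Totals were 71587993 to 122910706 reads.

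Genes kept by filterByExpr (17347 of 30562) were TMM-scaled. edgeR 4.0.16 in R 4.3.3 fitted a robust quasi-likelihood model with all 24 libraries, and p-values were adjusted by Benjamini-Hochberg over all genes (threshold 0.05). The length gradient is the difference in median centred log2 CPM between the longest and the shortest of 5 equal classes of genes by exonic length. Standard errors came from the F statistic, and intervals use 20 residual degrees of freedom as designed and 19 with the rat-number term. Alternatives were DESeq2 1.42.0, limma 3.58.1 (voom with sample weights), other scalings, filters and library sets, a replicate block and each library left out. A linear rat number and the omission of 4 leptin rats were added after the data were seen. Nothing in the labels says that rats were handled in separate batches. As designed, p-values measure the spread between these rats, which includes the difference between the rat-number sets.

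The genes, the rat-number term and the gene lists were chosen with earlier results of these data known. The 2 genes of like pattern are those with the highest correlation to Hspa5 and to Hspa8. 0 of 30562 IDs were paired with a symbol, so chaperone lists and cell type markers fixed by symbol were not run.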

Additional observations from a re-analysis of the deposited data

Results flagged for a closer look

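Hspd1 in leptin replicate 6 was 277 CPM, while the other 5 leptin rats lay at 83.1 to 137 CPM. Its gap to the nearest rat was 0.722 of the group's range, above Dixon's 95% critical value for 6 samples. Hspd1 in ablation replicate 6 was 285 CPM, while the other 5 ablation rats lay at 58.1 to 126 CPM, a gap of 0.702 of the range. Both rats belong to the high-numbered set, and each is the only rat of that set in its group. Of 16 groups tested (4 genes in 4 groups), chance flags about 1 in 20.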

How the results depend on the processing

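Counts below are of the 4 chaperone genes called, against 0 as designed, and the cause of each change was not tested. The share of all genes called was given above for the designed fit, the rat-number term, DESeq2 and limma-voom. It is not given for the other fits, so their counts cannot be read as particular to chaperone genes. With the rat-number term, 1 gene (Hspa5) was called between ablation and leptin, 1 between denervation and leptin and 1 for any difference. With the term and a length gradient it was 1 between ablation and leptin, and with low-numbered rats only also 1 there. limma-voom called 4 between leptin and vehicle, 1 between ablation and leptin, 2 between denervation and leptin, 3 between ablation and vehicle, 2 between denervation and vehicle and 4 for any difference. With the term and a linear rat number, 1 was called between denervation and leptin. Leaving out 1 library at a time, with or without the term, gave 0 to 2 between leptin and vehicle, 0 to 2 between ablation and leptin, 0 to 2 between denervation and leptin and 0 to 1 for any difference. The other scaling, no filter, no mitochondrial genes, DESeq2 and fits to the compared groups alone called 0 of the 4, as did the term without the 4 leptin rats numbered 56 to 62, which leaves 2 leptin rats.

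Replicate numbers gave no uniform pairing of the rats: over 36 pairs of same-numbered rats the correlations of deviations ran from -0.34 to 0.73, 12 of them under 0.1. The pairs of replicate 6, where every rat was high-numbered, lay at 0.652 to 0.73. High-numbered rats occurred only at replicates 4 to 6, so the block overlaps in part with the rat-number set. The share of all genes called in the block fits is not given here, so the counts that follow cannot be set against it. With the replicate block, 1 gene (Hspa5) was called between leptin and vehicle (-0.71, adjusted p = 0.0302, edgeR) and 1 between denervation and leptin (0.84, adjusted p = 0.0473). With the rat-number term and the block it was 1 between ablation and leptin, 1 between denervation and leptin and 1 for any difference, and log2 differences from vehicle of the other sign than as designed were 0.31 (Hspa5, ablation), 0.13 (Hspa8, ablation) and 0.044 (Hspd1, denervation).

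Log2 differences that changed sign were not called. In ablation against vehicle, Hspa5 was 0.29 with the term, 0.22 with the length gradient, 0.46 in low-numbered rats, 0.073 with a linear rat number and 0.28 without the 4 leptin rats, and Hspa8 was 0.13, 0.044, 0.11 in the first 3 of these and 0.11 in the last. In denervation against vehicle, Hspd1 was 0.044 with the term, 0.015 with the length gradient, 0.17 in low-numbered rats, 0.0082 with a linear rat number and 0.047 without the 4 leptin rats, and limma-voom gave -0.33 for Hspa5 and -0.20 for Hspa8. In ablation against leptin, Hspb1 was -0.13 with the length gradient, -0.14 with a linear rat number and -0.36 without the 4 leptin rats, where Hspd1 was 0.023. In denervation against leptin, Hspb1 was -0.22 without those 4. In low-numbered rats, Hspb1 was -0.0046 in leptin against vehicle and Hspa5 0.018 in ablation against denervation.

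Leaving out 1 library at a time, Hspb1 ran from -0.032 to 0.37 in leptin against vehicle, from -0.10 to 0.18 in ablation against leptin and from -0.19 to 0.021 in ablation against denervation. Hspa5 ran from -0.22 to 0.38 in ablation against vehicle, from -0.0041 to 0.38 in denervation against vehicle and from -0.34 to 0.060 in ablation against denervation. Hspa8 ran from -0.26 to 0.22, from -0.047 to 0.25 and from -0.29 to 0.045 in the same pairs. Hspd1 ran from -0.45 to 0.33 in ablation against leptin and from -0.51 to 0.10 in denervation against vehicle. With 6 rats a group and the rat numbers unevenly spread, the sets and the groups are only partly separable, and the precision is limited by the spread between rats rather than by depth.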

Other observations

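Among the low-numbered rats, the ratio of Hspd1 to Hspa8 per kilobase within a library was 0.160 to 0.185 in 5 ablation rats and 0.234 to 0.288 in 5 leptin rats, without overlap. It was 0.179 to 0.238 in 4 denervation rats, against 0.190 to 0.246 in 3 vehicle rats. The ratio of Hspa5 to Hspa8 was 0.423 to 0.545 in the same ablation rats and 0.386 to 0.447 in the same leptin rats, with overlap. Among the high-numbered rats, Hspd1 over Hspa8 had the other order, at 0.314 in the 1 ablation rat and 0.302 in the 1 leptin rat. There Hspa5 over Hspa8 was 0.427 in the ablation rat and 0.323 in the leptin rat. These ratios and the set were chosen after the values were seen, and no test was run on them. How many other ratios separate such rats was not counted.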
